A study of Mus musculus with 4 samples.

Results

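The 10 genes described here encode proteins that neutrophils carry in their granules or, for calprotectin, in their cytosol: S100a8 and S100a9 (calprotectin), Lcn2, Ltf, Camp and Ngp (secondary granules), and Mpo, Elane, Prtn3 and Ctsg (primary granules). They were chosen by symbol: every non-control probe that the array's annotation assigns to one of these symbols was taken, which gave 12 of 55681 probes and 10 of 23036 genes with a symbol. Camp and Mpo had 2 probes each and the other members 1. Where a gene had several probes, the brightest over the 4 arrays stood for it and the other is given beside it.

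The arrays measured mRNA of bone marrow-derived macrophages (BMDMs) of 10-week-old C57BL/6J mice, grown for 6 days in medium with L929 cell supernatant, a source of M-CSF, and then stimulated for 2 days. Each of 4 groups was hybridised to 1 single-colour array. The M2 group was wild type and received 50 ng/ml IL-4, which drives alternative activation. The M1 group was wild type and received 20 ng/ml IFN-γ with 100 ng/ml LPS, the classical stimulus. The KO group lacked Lamtor1, named p18 or 2400001E08Rik in the labels, a lysosomal protein of the Ragulator complex that anchors mTORC1, and received 50 ng/ml IL-4. The Torin1 group was wild type and received 50 ng/ml IL-4 with 250 nM Torin1, an inhibitor of the mTOR kinase. In the study's methods the deletion came from Cre recombinase under the lysozyme M promoter, which is active in monocytes, macrophages and neutrophils alike. The study's supplement defines its wild-type macrophages as those of floxed mice without this Cre. Its methods name such mice as littermate controls and also list purchased C57BL/6J mice. Which of these gave the wild-type cells of these arrays is not stated for the arrays themselves. The study compared the other 3 groups with M2, so the 3 comparisons share 1 control array and are not independent of each other. With 1 array per group there is no replicate check, no test and no error over animals; the differences below describe these 4 arrays, and the number of arrays limits their precision.

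Granule proteins are made in waves while a neutrophil matures in the bone marrow. Primary (azurophil) granules fill first, at the promyelocyte stage, with myeloperoxidase and serine proteases, and secondary (specific) granules fill later, when the transcription factor C/EBPε is active. Calprotectin is made by neutrophils and monocytes and is largely lost as monocytes become resting macrophages, whereas Lcn2 is also a classical inflammatory gene of macrophages.

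Signals are given as normalized signals, that is, the scanner's processed signal divided by the 75th percentile of its array, and differences as log2 ratios of these. The 75th percentile was a signal of 287 on the M1 array, 595 on M2, 536 on KO and 470 on Torin1, and between 50.9% and 55.4% of probes were well above background by the scanner's own mark. The lowest normalized signal well above background was 0.0656 on M1, 0.0364 on M2, 0.0374 on KO and 0.0335 on Torin1. Probes with at least 8 spots gave a technical SD of a log2 ratio of 0.09 to 0.10 where both arrays were well above background and of 0.36 to 0.51 otherwise; this is the spread between spots of 1 array and holds no difference between animals or cultures. In M1 over M2 the median of all genes was a log2 ratio of 0.73, and it was 0.08 over genes well above background on at least 1 of these arrays and 0.85 over those on neither, so faint probes lie high on this scale. Dividing by the array median instead brought the all-gene median to -0.09 and lowered every M1 ratio by the same step. Lamtor1 had normalized signals of 51.2 on M1, 66.3 on M2 and 1.55 on KO, so the KO array held 2.34% of the M2 signal, in keeping with its label, and the Torin1 array 113%. All 8 macrophage markers were well above background on every array.

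The probe sequences are shown because each value below is the brightness of 1 such strand, and those of Ngp and Prtn3 span more than 1 exon. These 2 probes cover 549 and 817 bases of the genome with 60 bases of probe, so they cross at least 1 exon junction. The following 5 are printed whole, 5′ to 3′ in the sense of the mRNA.
S100a8 (chr3:90473778-90473837, plus strand): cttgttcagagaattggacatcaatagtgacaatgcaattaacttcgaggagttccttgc
Ltf (chr9:110942873-110942932, plus strand): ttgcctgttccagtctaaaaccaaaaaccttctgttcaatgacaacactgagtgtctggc
Ngp (chr9:110324266-110324814, plus strand): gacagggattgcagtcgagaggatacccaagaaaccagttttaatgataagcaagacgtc
Prtn3 (chr10:79343869-79344685, plus strand): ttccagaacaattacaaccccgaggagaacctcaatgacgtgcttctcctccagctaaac
Mpo, the fainter probe (chr11:87615121-87615180, plus strand): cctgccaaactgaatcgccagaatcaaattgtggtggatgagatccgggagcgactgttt
The positions are those of the array's own annotation, whose mouse build is not named in the file headers. They differ from the GRCm38.p6 positions of the promoters below, so positions of probes and promoters must not be combined. Exon annotation of that build was not used here.

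Of 5 other probes the last 30 bases are shown, with the polyadenylation signal AATAAA in capitals where it occurs. It occurred in 3 of the 12 member probes, namely 1 probe of Camp, 1 of Mpo and that of Elane, and in 10.1% of all 55681 probes.
S100a9 (chr3:90496573-90496632, minus strand): ttgttctgggaaatgataagataaataata
Lcn2 (chr2:32240199-32240258, minus strand): ccagcactccccatccacctgtcttaacac
Mpo, the brighter probe (chr11:87617840-87617899, plus strand): tatttgtacctgaggttcacactAATAAAa
Elane (chr10:79350902-79350961, plus strand): ttactacAATAAAagcagcctttgttttgt
Ctsg (chr14:56718795-56718854, minus strand): ctaactccctgtctcaggcacagacctagg
The Camp probes (chr9:109749911-109749970 and chr9:109749901-109749950, minus strand) share a stretch of 50 bases in their sequences and are not independent of each other. The annotated position of the second, fainter probe covers 50 of its 60 bases. Within the shared stretch they differ at 2 bases, A6G and T10C, counted from the first shared base, with the brighter probe's base first. The first 30 shared bases are shown with these positions in capitals.
Camp, the brighter probe: cagccAgagTagtaggcctgccttggcctg
Camp, the fainter probe: cagccGgagCagtaggcctgccttggcctg

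**Figure D1:**
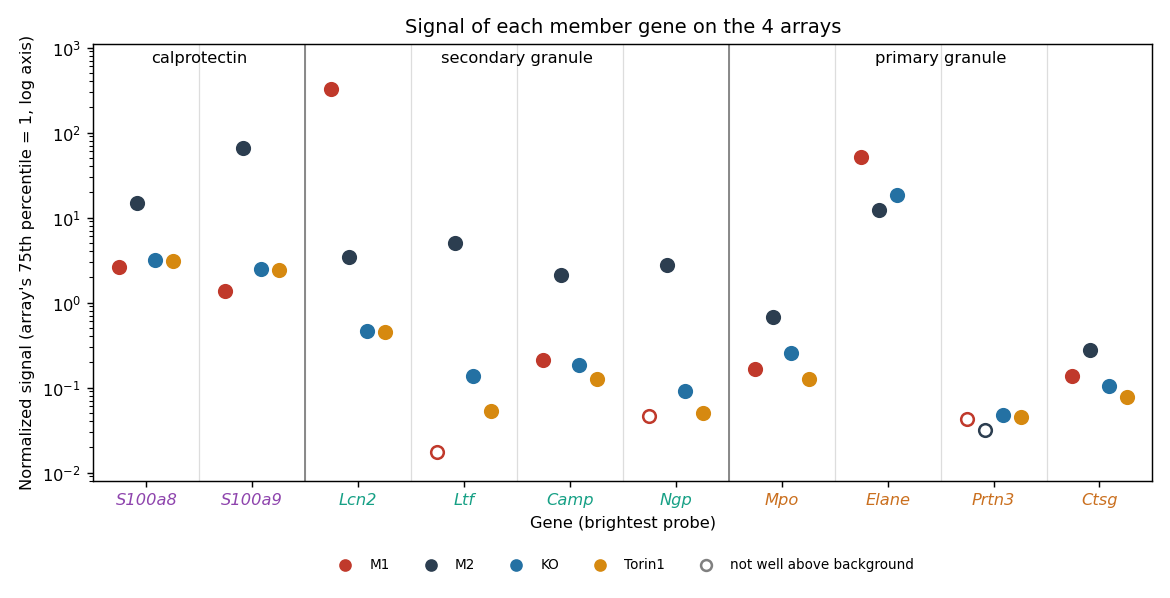
Normalized signal (the array's 75th percentile is 1, log axis) of the brightest probe of each of the 10 genes on the M1, M2, KO and Torin1 arrays, 1 array per group and so no error bars. Open circles are not well above background. M2 lies highest for 7 genes, M1 for Lcn2 and Elane, and Prtn3 stays near background on all 4 arrays; Elane has no Torin1 point because that spot was marked as not uniform. Levels of different genes come from different probes and are not comparable.

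Both calprotectin genes were highest on the M2 array and lower on each of the other 3, S100a9 by far more than S100a8. S100a8, the smaller subunit of the calcium- and zinc-binding calprotectin dimer, had normalized signals of 2.59 on M1, 14.7 on M2, 3.18 on KO and 3.12 on Torin1. Only M2 stood clearly apart, and KO and Torin1 differed from each other by 0.03 on the log2 scale, less than the technical SD of 0.09. Against M2 the log2 ratios were -2.51 for M1, -2.21 for KO and -2.23 for Torin1.

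S100a9, the larger partner in this dimer, had normalized signals of 1.38 on M1, 65.3 on M2, 2.45 on KO and 2.40 on Torin1. M2 was again the only high array, with M1 the lowest. The M2 signal was 47.4-fold that of M1, 26.6-fold that of KO and 27.2-fold that of Torin1 (log2 ratios to M2 of -5.57, -4.74 and -4.77). The KO and Torin1 signals lay within 0.03 on the log2 scale, as they did for S100a8.

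Of the secondary-granule genes, Ltf, Camp and Ngp followed S100a9, and Lcn2 did so only in KO and Torin1. Lcn2 encodes lipocalin-2, which withholds iron from bacteria by binding their siderophores. Its normalized signals were 329 on M1, 3.44 on M2, 0.461 on KO and 0.451 on Torin1. M1 was far the highest and M2 was intermediate, while KO and Torin1 were low and 0.03 apart on the log2 scale. The M1 signal was 95.7-fold that of M2 (log2 ratio 6.58), and the M2 signal was 7.47-fold that of KO and 7.63-fold that of Torin1 (log2 ratios -2.90 and -2.93).

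Ltf encodes lactoferrin, the iron-binding protein of secondary granules. It had normalized signals of 0.0176 on M1, which was not well above background, 5.04 on M2, 0.136 on KO and 0.0523 on Torin1. M2 was the only array with a strong signal. It was at least 76.8-fold above M1, 37.0-fold above KO (log2 ratio -5.21) and 96.3-fold above Torin1 (-6.59), and KO was 2.60-fold above Torin1.

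Ngp encodes neutrophilic granule protein, a cystatin-related protein of the same granules. Its normalized signals were 0.0465 on M1, not well above background, 2.73 on M2, 0.0919 on KO and 0.0497 on Torin1. The pattern resembled that of Ltf, with M2 alone high. M2 was at least 41.7-fold above M1, 29.7-fold above KO (log2 ratio -4.89) and 55.0-fold above Torin1 (-5.78). The Torin1 and KO values of Ngp and Torin1's of Ltf lie near each array's lowest signal well above background, so their folds rest on faint signals.

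Camp encodes the precursor of the cathelicidin antimicrobial peptide. Its brighter probe had normalized signals of 0.212 on M1, 2.09 on M2, 0.186 on KO and 0.126 on Torin1, all well above background. M2 was highest and the other 3 arrays lay close together, M1 and KO within 0.19 on the log2 scale. The log2 ratios to M2 were -3.30 for M1, -3.49 for KO and -4.05 for Torin1. The fainter, overlapping probe gave the same order with smaller ratios of -2.21, -2.60 and -3.12.

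The primary-granule genes did not share 1 pattern. Mpo and Ctsg were highest on M2, Elane was highest on M1, and Prtn3 could hardly be measured. Mpo encodes myeloperoxidase, which makes hypochlorous acid. Its brighter probe had normalized signals of 0.167 on M1, 0.685 on M2, 0.256 on KO and 0.127 on Torin1. M2 was 4.11-fold above M1, 2.68-fold above KO and 5.41-fold above Torin1 (log2 ratios -2.04, -1.42 and -2.44). The fainter probe, which lies upstream of it on the gene's strand, was well above background on M2 alone at 0.0905, which was at least 1.38-fold above M1, 2.42-fold above KO and 2.70-fold above Torin1.

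Ctsg encodes cathepsin G, a chymotrypsin-like protease. Its normalized signals were 0.135 on M1, 0.276 on M2, 0.105 on KO and 0.0774 on Torin1. M2 was highest and Torin1 lowest, over a narrower range than for the secondary-granule genes. The log2 ratios to M2 were -1.03 for M1, -1.39 for KO and -1.83 for Torin1, so the M1 value lies at the 2-fold limit.

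Elane encodes neutrophil elastase. Its normalized signals were 52.1 on M1, 12.4 on M2 and 18.6 on KO, and the spot on the Torin1 array was left out because the scanner had marked it as not uniform. Elane was thus lowest on M2 among the arrays that measured it, the opposite of Mpo and Ctsg. The log2 ratio to M2 was 2.07 for M1 and 0.58 for KO. With the marked spot kept, the Torin1 ratio was 1.02.

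Prtn3 encodes proteinase 3, and its gene lies directly beside Elane on chromosome 10, with 6.22 kb between their probes. Its normalized signals were 0.0428 on M1 and 0.0319 on M2, neither well above background, 0.0473 on KO and 0.0446 on Torin1. All 4 values lie at the edge of detection, and no neighbours in their order differed by more than 2 technical SDs. KO was at least 1.30-fold and Torin1 at least 1.23-fold above M2, and for M1 over M2 no fold can be given. The neighbouring genes Elane and Prtn3 were thus read at clearly measurable and at barely measurable signals by their own probes, which says nothing of their relative RNA amounts.

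**Figure D2:**
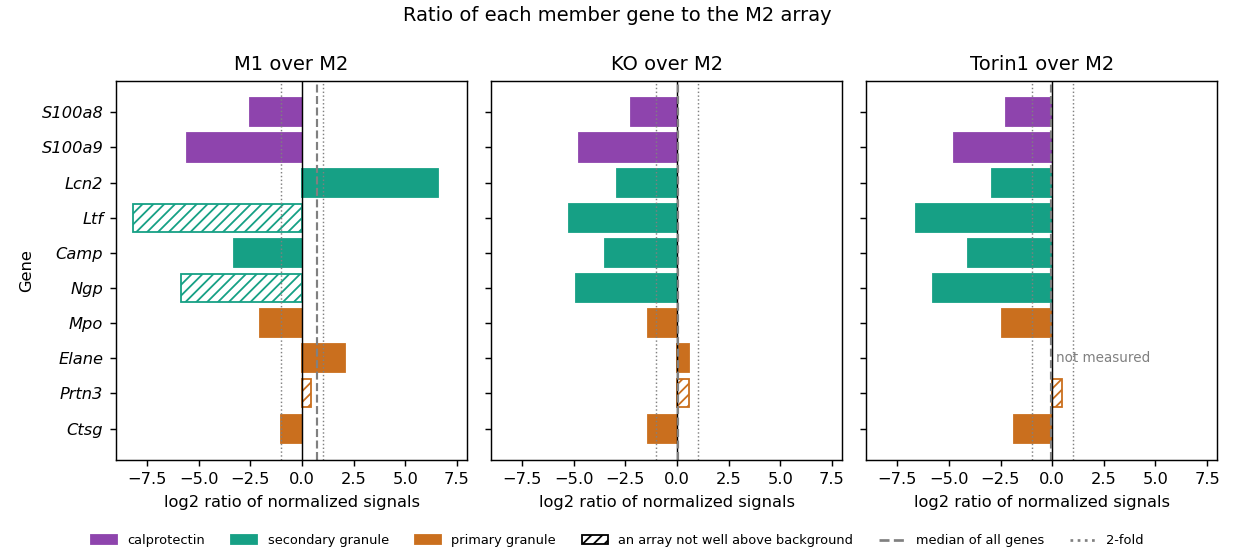
Log2 ratio of each gene's normalized signal to the M2 array, for M1, KO and Torin1. Bars are coloured by gene group, hatched bars involve an array not well above background and are not exact, the dashed line is the median of all genes and the dotted lines mark 2-fold. S100a8, S100a9, Ltf, Camp, Ngp, Mpo and Ctsg point down in all 3 panels, Lcn2 points up in M1 alone (6.58), and Elane was not measured on Torin1.

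Counted over the 10 genes, 7 were at least 2-fold lower and 2, Lcn2 and Elane, at least 2-fold higher in M1 than in M2; among all 23026 genes measured on both arrays, 19.3% were lower and 30.5% higher by this limit. Among genes well above background on at least 1 of these arrays, 27.7% were lower and 28.3% higher, so the lower share moved most with the faint genes. Every member counted as lower also passed 2-fold by its bound where it had one. In KO, 8 of 10 were lower and 0 higher, beside 8.62% lower and 8.92% higher among all genes. In Torin1, 8 of 9 were lower and 0 higher, beside 11.8% lower and 14.2% higher among all genes. The 8 genes were S100a8, S100a9, Lcn2, Ltf, Camp, Ngp, Mpo and Ctsg in both. With 1 array per group these counts have no test, and the 10 genes were chosen with earlier results of these data known.

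The gene groups differed in the size of their ratios. The 6 secondary-granule and calprotectin genes had a median log2 ratio to M2 of -4.44 in M1, or -4.34 with Ltf and Ngp at their bounds, -4.11 in KO and -4.41 in Torin1. The primary-granule genes well above background on at least 1 of both arrays had medians of -1.03 over 3 genes in M1, where Prtn3 had no measurable ratio, -0.41 over 4 in KO and -1.83 over 3 in Torin1, where Elane was left out. With the marked Elane spot kept, the Torin1 median was -0.68. Over all genes the medians were 0.73, 0.04 and -0.05. These medians changed with the processing. Under another background correction, normexp, the primary-granule medians were -0.18 in M1, -0.27 in KO and -0.84 in Torin1, and those of the secondary-granule and calprotectin genes -2.95, -3.25 and -3.52. After scaling to the array median those in M1 were -1.85 for the primary-granule genes and -5.26 for the other group. In KO every secondary-granule and calprotectin gene, from -2.21 to -5.21, lay below every primary-granule gene, from -1.42 to 0.58. In Torin1 the ranges overlapped, since Mpo at -2.44 lay below S100a8 at -2.23.

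KO and Torin1 can also be set against each other without the M2 array. The ratio of KO to Torin1 was 1.02 for S100a8, 1.02 for S100a9 and 1.02 for Lcn2. For the other genes KO was the higher array, by 2.60-fold for Ltf, 1.85-fold for Ngp, 1.48-fold for Camp, 2.02-fold for Mpo and 1.36-fold for Ctsg, and Prtn3 had a ratio of 1.06 at the edge of detection. These gaps exceeded 2 technical SDs for Ltf, Ngp, Camp, Mpo and Ctsg.

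The promoters of the 10 genes were searched in the 250 bases before the transcript start (RefSeq, GRCm38.p6), where all 10 genes had an entry, with 4 short motifs. TTGCNNAA, a core of C/EBP sites, occurred on either strand in those of S100a9, Lcn2, Ltf and Ngp, that is 4 of 10, beside 9.56% of all 32851 promoters. AGGAAGT, a core of PU.1 sites, occurred on either strand in all 4 primary-granule genes and in S100a8, beside 7.69% of all promoters. GGG followed by any 5 bases and CC, the outline of an NF-κB site, occurred on either strand in Lcn2, Ltf, Mpo and Prtn3, beside 45.8% of all promoters, and in Ltf its matches overlap each other. TATAAA, on the gene's strand, occurred in S100a8 alone, beside 7.59%. Such matches are descriptions of letters and not sites of binding, and no match says only that these letters are not in this window.

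The promoters of Lcn2, which parted from the others in M1, and of Ltf and Ngp, which moved alike, are shown with all motif matches in capitals.
Lcn2 (chr2:32387740-32387989, minus strand): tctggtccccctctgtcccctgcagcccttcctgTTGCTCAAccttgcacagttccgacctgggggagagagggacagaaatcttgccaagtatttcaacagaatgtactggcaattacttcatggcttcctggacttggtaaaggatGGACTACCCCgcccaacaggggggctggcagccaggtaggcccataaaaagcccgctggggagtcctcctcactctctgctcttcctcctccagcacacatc
Ltf (chr9:111019042-111019291, plus strand): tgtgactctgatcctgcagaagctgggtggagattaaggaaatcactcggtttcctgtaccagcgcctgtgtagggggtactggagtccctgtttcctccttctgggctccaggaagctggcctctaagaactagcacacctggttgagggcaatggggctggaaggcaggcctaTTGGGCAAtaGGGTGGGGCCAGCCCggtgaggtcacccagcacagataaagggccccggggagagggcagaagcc
Ngp (chr9:110419558-110419807, plus strand): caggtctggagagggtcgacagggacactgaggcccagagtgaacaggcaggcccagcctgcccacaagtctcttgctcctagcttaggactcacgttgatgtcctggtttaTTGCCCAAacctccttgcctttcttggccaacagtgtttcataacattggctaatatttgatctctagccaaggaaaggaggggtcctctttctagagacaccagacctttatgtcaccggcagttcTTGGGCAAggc
With bases counted back from the start, the C/EBP match of Lcn2 begins at -216 and its NF-κB match at -102. The C/EBP match of Ltf begins at -75, just before its NF-κB matches at -65 to -51, and the C/EBP matches of Ngp begin at -138 and -11. For the neighbours Elane and Prtn3 the last 120 bases before the start are shown, with AGGAAGT in capitals.
Elane (chr10:79886192-79886311, plus strand): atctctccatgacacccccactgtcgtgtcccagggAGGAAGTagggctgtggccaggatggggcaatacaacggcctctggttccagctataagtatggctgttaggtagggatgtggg
Prtn3 (chr10:79879547-79879666, plus strand): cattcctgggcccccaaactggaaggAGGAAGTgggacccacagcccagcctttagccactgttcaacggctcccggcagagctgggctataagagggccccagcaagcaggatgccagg
The match begins at -84 in Elane and at -94 in Prtn3.

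Some members lie near each other, and the genes beside them are given for comparison. S100a8 and S100a9 lie side by side on chromosome 3 with 22.7 kb between their probes, and the genes flanking the pair on the array, S100a7a and Pglyrp4, were not well above background on any array. Camp, Ngp and Ltf lie within 1.19 Mb on chromosome 9. The genes next to Ngp, Ptpn23 and Klhl18, had log2 ratios in KO of 0.53 and 0.39, and those next to Camp, Nme6 and Cdc25a, of 0.68 and 0.49. In M1, however, Klhl18 at -1.63, Nme6 at -1.64 and Cdc25a at -0.90 were lower, as Ngp and Camp were, and Ptpn23 stood at 0.78. Next to Ltf, the chemerin-binding receptor gene Ccrl2 was higher in all 3 comparisons, with log2 ratios of 3.81 in M1, 2.05 in KO and 3.55 in Torin1. Beside Ctsg, the basophil protease gene Mcpt8 was well above background on M2 alone, at 0.0658.

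The genes whose pattern over the 4 arrays lay closest to each member were sought among all genes with a symbol measured on every array, by the Euclidean distance of centred log2 signals raised to each array's lowest signal well above background. Few of them were granule genes, and with 4 arrays many genes lie close to any pattern. Ngp was among the nearest 3 of Ltf (distance 0.73) and of S100a9 (0.92). S100a8 lay nearest to the phosphatase gene Ptpn7 (0.15), the platelet chemokine gene Pf4 (0.19) and Gpr27 (0.22), and S100a9 to Abca9 (0.66), 4933417E11Rik (0.76) and Ngp. Lcn2 had no close match, with Gbp9, an interferon-inducible GTPase gene, at 1.12, Pilra at 1.54 and Bst1 at 1.67. Camp lay nearest to Ddx4 (0.09), Apol7c (0.23) and 6720475J19Rik (0.26), and Ltf to Slc36a2 (0.69), Ngp and Scn3a (0.89). Ngp lay nearest to Abca9 (0.35), Chn2 (0.45) and Gfra2 (0.60). Mpo lay nearest to Ap1b1 (0.15), the 5-lipoxygenase gene Alox5 (0.17) and Pfkfb4 (0.25), and Ctsg to the homeobox gene Hlx (0.18) and to Fcgrt (0.23). Prtn3, at background, lay within 0.04 of Syt5, Cpne7 and Gstm6, and Elane could not be placed for want of a Torin1 value.

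The other genes of secondary and tertiary granules were mostly lower in KO and Torin1 too. In this and the following lists, genes well above background on at least 1 of both arrays were counted as higher or lower where the ratio, or for a gene not well above background on 1 array its bound, reached 2-fold. Among all genes so counted, 25.4% were lower and 28.1% higher in M1, 9.23% and 9.53% in KO, and 14.3% and 12.7% in Torin1. Of 13 other secondary- and tertiary-granule genes on the array, 7 of the 10 measured in KO were lower and 1 higher, with a median log2 ratio of -2.12 when bounded genes stood at their bound. In Torin1 6 of 10 were lower and 2 higher (median -2.48). Without bounds these medians were -2.29 and -2.90, and -1.04 and -1.08 under normexp. In M1 3 of 11 were lower and 3 higher, near the shares among all genes, with a median of 0.33 that turned to -0.49 when the array median was used for scaling. Mmp9, gelatinase B of tertiary granules, measured by 10 spots, had normalized signals of 0.0150 on M1, not well above background, 1.29 on M2, 0.0612 on KO and 0.0452 on Torin1. It thus followed Ltf and Ngp, with M2 at least 19.7-fold above M1 and log2 ratios of -4.40 in KO and -4.84 in Torin1. Chi3l1, the chitinase-like glycoprotein YKL-40 of specific granules, was well above background on M2 alone, at 0.244, and was at least 3.72-fold above M1, 6.52-fold above KO and 7.28-fold above Torin1. Pglyrp1, an antibacterial peptidoglycan-binding protein, had log2 ratios of -1.46 in M1 and -2.29 in KO, and M2 was at least 6.50-fold above Torin1.

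Several genes of this list did not follow. Hp was higher in M1 and KO and lower in Torin1 (log2 ratios 1.63, 1.32 and -3.05). Cybb had log2 ratios of -0.52 in M1, -1.04 in KO and 2.21 in Torin1. Mmp8, neutrophil collagenase, had normalized signals of 1.48 on M1, 1.18 on M2, 0.145 on KO and 6.52 on Torin1, so that KO and Torin1 parted (log2 ratios -3.02 and 2.47). Mmp25 was measurable on M1 alone, at least 26.8-fold above M2, and Itgb2l was higher in M1 (log2 ratio 2.71) and on M2 at least 4.27-fold above KO and 4.77-fold above Torin1. Cyba, an NADPH oxidase subunit, ranged on its brighter probe from 445 on M2 to 644 on KO. Macrophages express Cyba, Cybb, Adam8 and Mmp9 as well.

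Of 9 other genes of primary granules and their processing, 8 were well above background on at least 1 array. Of these 3 were higher and 1 lower in M1, 1 higher and 2 lower in KO, and 1 higher and 4 lower in Torin1, with medians of 0.36, 0.20 and -0.48 when bounded genes stood at their bound. Without bounds the M1 median was 0.33, and -0.49 when the array median was used for scaling, and the Torin1 median was -0.99, and -0.09 under normexp. Bpi, the bactericidal permeability-increasing protein, was measured by probes that disagreed. The brighter was well above background on M2 alone at 0.508, at least 7.75-fold above M1, 13.6-fold above KO and 15.2-fold above Torin1, and the fainter was well above background on KO alone at 0.0487, at least 1.34-fold above M2. Ms4a3, a marker of granulocyte-monocyte progenitors, was measurable on M2 alone at 0.0709, at least 1.08-fold above M1, 1.90-fold above KO and 2.12-fold above Torin1. Srgn, the proteoglycan serglycin that packs granule proteases, was 8.58-fold higher in M1 and lower in KO (log2 ratio -1.09) and Torin1 (-2.57), the same directions as Lcn2. Cst7, cystatin F, an inhibitor of the protease activator cathepsin C, was higher in all 3, with log2 ratios of 5.36, 1.06 and 2.69. Cd63, a granule-membrane tetraspanin, had log2 ratios of -0.17, 0.47 and 0.39. Lyz1 and Lyz2 are near-identical copies whose probes may share targets, and neither passed 2-fold.

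**Figure D3:**
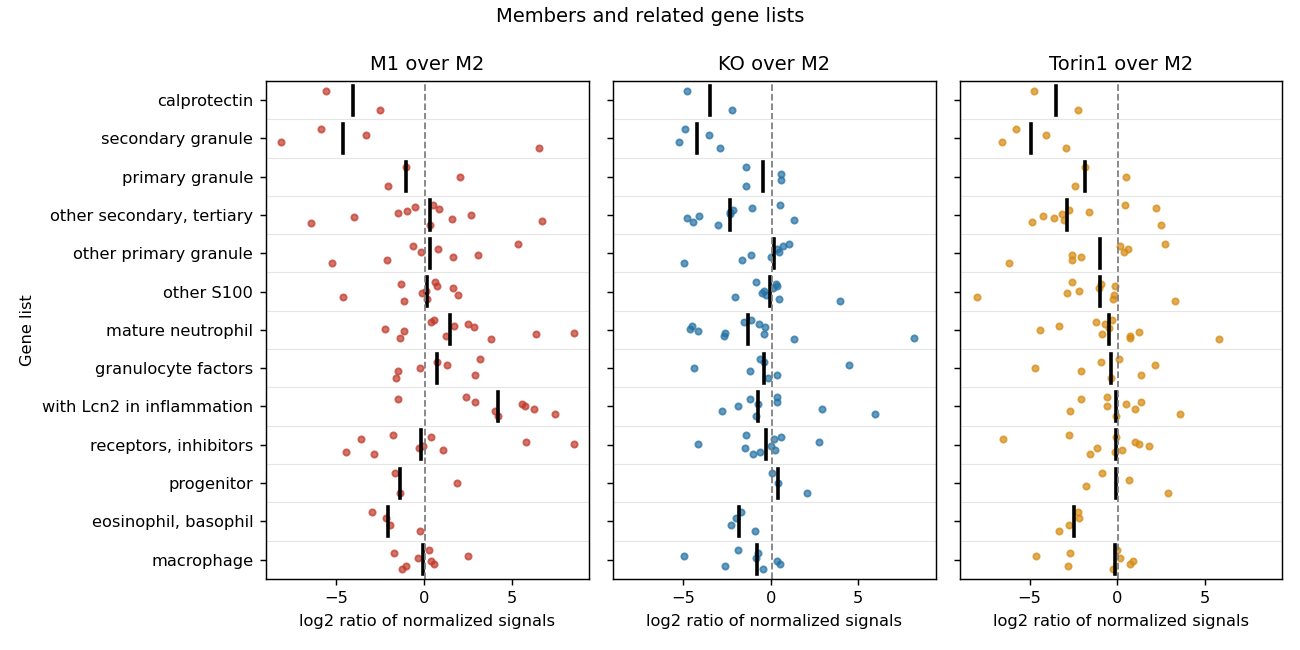
Log2 ratio to M2 of the members and of related gene lists, for M1, KO and Torin1. Each point is a gene well above background on at least 1 of both arrays, at its ratio as measured, which is not exact where 1 of both arrays was not well above background, black bars are medians of these and the dashed line is the median of all such genes. Secondary-granule and calprotectin genes lie to the left in each panel except Lcn2 in M1 (6.58), and the genes known to accompany Lcn2 in inflammation lie to the right in M1 (median 4.23).

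The other S100 genes did not move as S100a8 and S100a9 did. Of 14 on the array, 10 were well above background in at least 1 array of each comparison; 2 were higher and 3 lower in M1, 1 higher and 1 lower in KO, and 1 higher and 5 lower in Torin1. S100a4, a regulator of cell motility, came closest, with normalized signals of 14.2 on M1, 339 on M2, 82.2 on KO and 1.35 on Torin1. It was highest on M2, but KO and Torin1 differed widely, with log2 ratios of -2.04 and -7.97. S100a1 was lower in M1 (log2 ratio -1.12) but higher in KO and Torin1, with normalized signals of 5.28 on M1, 11.5 on M2, 178 on KO and 112 on Torin1 (log2 ratios 3.95 for KO and 3.28 for Torin1). S100a6 had log2 ratios of -0.11 in M1, -0.48 in KO and -2.86 in Torin1.

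Of 8 transcription factors of granulocyte development, 7 were well above background on M1 and 6 on each other array, and Myb was on none. Against M2, 3 were higher and 2 lower in M1, 1 higher and 2 lower in KO, and 2 higher and 2 lower in Torin1. Cebpe, which encodes C/EBPε, had normalized signals of 0.850 on M1, 0.977 on M2, 0.0473 on KO and 0.0377 on Torin1, the last pair not well above background. M1 and M2 were close here on the main scale (log2 ratio -0.20), unlike for any of the 4 secondary-granule genes, and M2 was at least 20.6-fold above KO and 25.9-fold above Torin1. Scaling to the array median lowered every M1 ratio, that of Cebpe included. By that scaling 2 factors were higher and 3 lower in M1. Gfi1, a repressor that acts with C/EBPε in granulocytes, was higher in all 3 comparisons. It was at least 22.3-fold above M2 in KO, 4.49-fold in Torin1 and 2.48-fold in M1. Runx1 had the largest ratio in M1 on its brighter probe (3.22), whereas its other probe gave -0.16. Cebpb had log2 ratios of 2.92, 0.38 and 1.34, and Cebpd, with -1.49, -1.19 and -2.09, was lower in all 3.

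Among 10 genes that induce Lcn2 or are induced with it in inflammation, 9 were well above background in at least 1 array, and 8 were higher and 1 lower in M1, with a median log2 ratio of 4.23. Nfkbiz, which encodes the NF-κB cofactor IκBζ needed for Lcn2 induction, had normalized signals of 2.10 on M1, 0.112 on M2, 0.0634 on KO and 0.106 on Torin1. It was high on M1 alone (log2 ratio 4.23), and KO and Torin1 gave -0.82 and -0.09. Saa3, an acute-phase gene, had log2 ratios of 5.60 in M1, -0.70 in KO and 0.51 in Torin1. Tnf, measured by 10 spots, had 5.77, -1.88 and -0.60. The interleukin genes Il1a and Il6 were not well above background on M2, with Il1a at least 44.0-fold above M2 in M1, 15.1-fold in KO and 2.86-fold in Torin1, and Il6 at least 48.0-fold in M1, 4.69-fold in KO and 1.23-fold in Torin1. In KO 2 of the 9 were higher and 2 lower, and in Torin1 2 were higher and 2 lower.

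Of 13 receptors and inhibitors of the member proteins, 10 were well above background in at least 1 array, 3 higher and 4 lower in M1, 1 higher and 3 lower in KO, and 3 higher and 4 lower in Torin1. Tlr4, a receptor of calprotectin, measured by 2 spots, had normalized signals of 1.72 on M1, 12.5 on M2, 6.26 on KO and 4.18 on Torin1. It was highest on M2, as S100a8 and S100a9 were, with a log2 ratio in Torin1 of -1.58. Slpi, which inhibits elastase and cathepsin G, had normalized signals of 170 on M1, 3.05 on M2, 20.6 on KO and 6.18 on Torin1, and like Elane was lowest on M2. Serpinb1a, an inhibitor of the same proteases, had log2 ratios of -3.56 in M1, 0.17 in KO and -6.50 in Torin1. Slc22a17, the lipocalin-2 receptor, had a log2 ratio of -1.48 in KO, and Cd36, a scavenger receptor, one of -4.44 in M1.

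Markers of other cells are given because granule genes may be carried by neutrophils or their precursors. Fewer cells of such a type and less RNA per cell cannot be told apart in these bulk samples. Of 15 mature neutrophil markers, 13 were found on the array, Ly6g and BC100530 not being listed under these names; 11 were well above background on M1, 10 on M2, 4 on KO and 8 on Torin1. Their summed normalized signal was 294 on M1, 92.0 on M2, 73.6 on KO and 147 on Torin1, most of it from Csf3r, the G-CSF receptor, which macrophages express too. On M1 the formyl peptide receptor gene Fpr2 added 61.3 to the 219 of Csf3r. Cxcr2, the defining chemokine receptor, was not well above background on M2 at 0.0203 and was on KO alone, at 0.0516, at least 1.42-fold above M2. Retnlg was well above background on M2, at 0.129, and higher on Torin1, at 0.215 (log2 ratio 0.74), but not on M1 or KO. In KO 5 of 12 were lower and 1 higher, in Torin1 2 of 11 were lower and 2 higher, and in M1 2 of 12 were lower and 6 higher. By the ratio alone the lower markers numbered 7 in KO, 3 in Torin1 and 3 in M1, and after normexp background correction 3, 2 and 1. Stfa2l1, a stefin whose near-identical copies may share its signal, stood at 2.77 on M1 and 0.385 on M2, so M1 was 7.19-fold above M2. For this gene M2 was at least 10.3-fold above KO, and the log2 ratio in Torin1 was -3.31. Fpr2, a receptor of cathelicidin, had a log2 ratio of 8.56 in M1, and Fpr1 one of 6.39. Cxcr1 was higher in KO, at least 102.8-fold above M2, and in Torin1, at least 19.5-fold.

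Of 5 progenitor markers, 2 were well above background on M2, and Kit, the stem cell factor receptor, was measurable on KO and Torin1 only, at 0.0778 and 0.138. In M1 1 of 3 was higher and 2 were lower, in KO 1 of 3 was higher and 0 lower, and in Torin1 1 of 4 was higher and 1 lower. Sox4 had log2 ratios of -1.63 in M1, 0.07 in KO and -0.85 in Torin1. Eosinophil, basophil and mast cell markers were low throughout, and 4 of 5 were well above background on M2, 0 on M1, 2 on KO and 1 on Torin1, with a summed signal of 0.740 on M2, 0.212 on KO and 0.110 on Torin1. Prss34, a basophil protease, stood at 0.519 on M2, at least 7.81-fold above M1, with log2 ratios of -1.66 in KO and -2.23 in Torin1. In this and the other marker sums, signals not well above background counted as 0. The 4 markers detected on M2 read highest there, where most members were highest. By ratio or bound, however, 1 of 4 was lower in M1, 1 of 4 in KO and 3 of 4 in Torin1, and 0 were higher. M2 was at least 1.00-fold above M1 for Mcpt8, 1.02-fold for Cpa3 and 1.16-fold for Prg2. Under normexp the median log2 ratios were 0.26 in M1, -0.32 in KO and -0.36 in Torin1. The part of these markers in the member ratios was not tested.

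The summed signal of the 8 macrophage markers was 415 on M1, 729 on M2, 491 on KO and 549 on Torin1. The largest part of each sum was the signal of 1 Csf1r probe, and single markers differed more. Of these 8, 1 was higher and 3 lower in M1, and 0 were higher and 3 lower in both KO and Torin1. These counts rest on the brightest probe of each gene, and the probes of Itgam disagreed. Its brightest gave log2 ratios of -0.81 in KO and 0.15 in Torin1. The others gave -2.34 and -1.10 in KO and -2.81 and -1.76 in Torin1. Emr1, which encodes F4/80, was lower on both its probes, with log2 ratios of -2.57 and -2.78 in KO and -2.81 and -2.53 in Torin1, and Cd14 had -1.86 in KO. Fcgr1, the high-affinity IgG receptor, was lower in KO (log2 ratio -4.96) and Torin1 (-4.61) and higher in M1 (2.49), a wider range than that of the sum. The probes of Csf1r, the M-CSF receptor, disagreed in size, the brightest giving log2 ratios of -1.24 in M1, -0.44 in KO and -0.27 in Torin1 and the other probes -2.86, -1.86 and -1.85, and -2.22, -1.84 and -2.14. Lymphocyte markers were few, with 2 of 5 well above background on M1, M2 and Torin1 and 3 on KO. In M1 0 of 2 were higher or lower, in KO 1 of 3 was higher and 1 lower, and in Torin1 0 of 2 were higher and 1 lower. Cd3e had log2 ratios of 0.75, -0.02 and -0.26, and Cd79a of -0.43, -1.84 and -1.61. Cd3d was at least 4.35-fold above M2 in KO. Fibroblast genes were measurable on all arrays, with a summed signal of 15.9 on M1, 43.0 on M2, 55.2 on KO and 15.1 on Torin1, and of erythroid genes 1 was measurable on M1, 0 on M2 and KO, and 1 on Torin1.

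**Figure D4:**
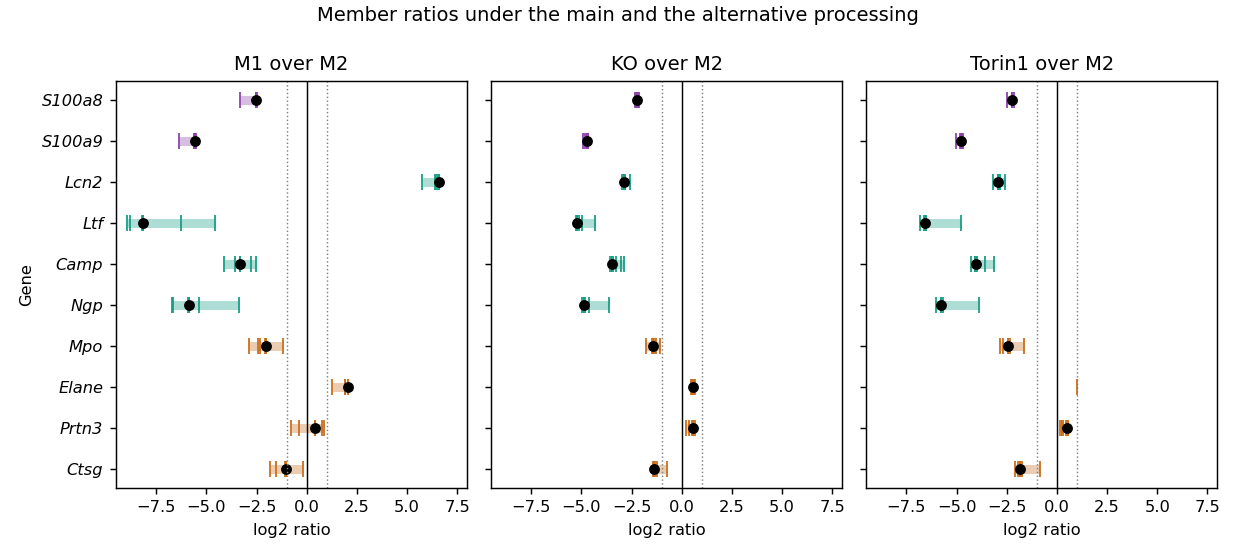
Log2 ratio to M2 of each member under the main processing (black dots) and under the alternatives (ticks, with a bar over their range), for M1, KO and Torin1. Dotted lines mark 2-fold. Prtn3 in M1 is the 1 member ratio whose range crosses 0, from -0.76 to 0.85, Ltf and Ngp in M1 move most because their M1 signals are at background, and the Elane tick in Torin1 is the spot that was left out.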

How the data were processed

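Expression was measured on 4 single-colour Agilent 8x60K mouse arrays, 1 per group. The authors deposited scanner output in which the intensity of each spot is background-corrected; the labels' processing notes name Feature Extraction 10.5.1.1 and the file headers 10.7.3.1. The study's methods state a raw signal threshold of 1 and a shift of each array to its 75th percentile in Subio Platform, and the same steps were used here. A deposited series table held the same intensity values within 0.497%, on the linear scale.

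Control spots and spots marked as outliers were left out (the Elane spot of the Torin1 array among them), spots of a probe were averaged, and log2 ratios to the M2 array were taken. Groups came from the sample labels. Where 1 of both arrays did not detect a probe, a bound was given against the lowest detected signal of that array. Ratios of 2-fold were counted without a test, since each group had 1 array; in the related lists a gene with a bound counted only where the bound reached 2-fold. Of 23036 array symbols, 84.8% were RefSeq symbols, and older names were matched through RefSeq synonyms. Python 3.11.15 with pandas 2.3.3 and, for normexp, R 4.3.3 with limma 3.58.1 were used, and recovery of planted ratios was tested on simulated data.

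The text names every member and Lamtor1 with all its values, genes of each list, drawn from the 4 largest ratios per comparison and the highest mean signal over the 4 arrays (not all of these are printed), the 3 genes most like each member (1 of those of Ctsg is not reported here), and chromosomal neighbours. The lists were calprotectin, secondary granule, primary granule, other S100, other primary granule, other secondary and tertiary granule, mature neutrophil, granulocyte transcription factor, progenitor, receptor and inhibitor, Lcn2 companion, macrophage, lymphocyte, eosinophil and basophil, fibroblast and erythroid genes. A few further list genes were picked for the text with their values known. Members and lists were chosen with earlier results of these data known.

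Alternatives were scaling to the array median, quantile normalization, a 75th percentile taken only from probes that all 4 arrays detected, normexp with an offset of 50, faint signals raised to the detection limit of their array, a filter on faint probes, outlier spots kept, the mean of all probes of a gene, a 3-fold limit and the series table.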

Additional observations from a re-analysis of the deposited data

How the results depend on the processing

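The counts of members at least 2-fold higher or lower kept within 1.5 times their main value under all 10 alternatives, except the 0 members higher in Torin1, which became 1 when outlier spots were kept, because the Elane spot then counted (log2 ratio 1.02). The lower members numbered 7 in M1, 8 in KO and 8 in Torin1; under normexp, which compresses faint signals, they numbered 6, 7 and 7, Ctsg being the gene lost, and with a 3-fold limit 6, 6 and 8. None of the called member ratios changed sign under any alternative, and 28 of 29 member ratios had 1 sign throughout, the exception being Prtn3 in M1 (-0.76 to 0.85). The size was less settled: of 314 alternative values of ratios and medians, 81 moved by more than the technical SD. The M1 ratios of Ltf and Ngp have no exact value, since their M1 signals were not well above background; as computed they stood at -8.16 and -5.88, and under normexp at -4.57 and -3.36. The M1 ratio of Ctsg was -0.18 under normexp instead of -1.03. Dividing by the array median took the M1 ratio of Lcn2 from 6.58 to 5.76 and of Elane from 2.07 to 1.25. Among the related lists, by ratios without bounds, normexp changed the KO median of the other secondary and tertiary granule genes from -2.29 to -1.04, their Torin1 median from -2.90 to -1.08, and the count of neutrophil markers lower in KO from 7 to 3. No paired analysis was possible because each group holds 1 array, and no replicate could be left out for the same reason. Signal over background limits Prtn3 on every array and Ltf and Ngp on M1 and Torin1.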
